A study of Mus musculus with 6 samples.

Results

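The complement and coagulation genes examined here are 32 genes of these blood-borne defence and clotting cascades, chosen by name: components, receptors and inhibitors of complement, and clotting factors with their inhibitors. Of the 32, 31 had at least 1 probe on the array, 40 probes in all, and the same 31 passed the filter on dim probes, out of 20130 genes with a probe and 16408 that passed. C7 matched no probe and was not analysed here. RNA came from skin wounds of male C57/BL6 mice and was read on 3 FoxO1 +/- and 3 wild-type (WT) single-colour Agilent arrays. Each array is taken here as 1 animal, from the numbers in the sample titles, although the series' text speaks of 3 experiments for a mouse and does not settle this. The labels describe 4 excisions through the full depth of the dorsal skin, cut with a punch of 4 mm and collected with one of 6 mm, here on day 3. The FoxO1 +/- mice are heterozygous for a disrupted Foxo1, which encodes a forkhead transcription factor, whereas the ages of the mice, the allele's construction and any pooling of wounds are not given in the sources used here. All wounds of both genotypes were of 1 age, and unwounded skin was not analysed here.

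Complement is a chain of plasma proteases and binding proteins that marks surfaces for phagocytes, releases inflammatory peptides and can build a pore in membranes. It starts from C1q bound to antibody or debris, from lectins, or from the spontaneous turnover of C3, which the alternative pathway amplifies. Coagulation starts when tissue factor, exposed by injury, binds factor VII and turns on factor X, which makes thrombin and then fibrin, while thrombomodulin, tissue factor pathway inhibitor and antithrombin hold it in check. Many of these proteins are made by the liver and reach a wound in plasma, but macrophages, fibroblasts, adipocytes, endothelium and keratinocytes transcribe some of them locally, and only local transcripts are measured here.

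Levels are log2 signals relative to the 75th percentile of each array, so a level of 0 equals that percentile. Probes differ in how brightly they report a transcript, and levels of different genes are therefore not set against each other. A wound is a mixture of cell types, and fewer cells of a type cannot be told apart from less RNA per cell. Between 70.1% and 71.9% of spots were well above background on 5 arrays, against 64.3% on FoxO1 +/- replicate 3, whose 75th percentile was a signal of 899 against 1095 to 1299 on the others. Both Foxo1 probes were lower on all 3 FoxO1 +/- arrays, at 71.7% and 53.8% of the WT level, with limma adjusted p-values over all kept probes of 0.547 and 0.190. Whether these probes fall inside the disrupted stretch is not known here. WT replicate 1 stood apart in its hair follicle markers, 8 of 10 measured, with a mean level of 0.99 there, against -3.27 to -2.78 on the FoxO1 +/- arrays and -2.64 and -1.97 on the other WT arrays, and results without that array are given below.

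Promoter sequences are shown for 4 members: C1qb and C1qc, 2 neighbouring genes of chromosome 4 that encode chains of the same protein, and F7 and Cfd, which had the largest differences between the genotypes. Each is the 250 bases before the annotated start, 5′ to 3′ on the gene's strand, from RefSeq on GRCm38.p6. The windows lie at chr4:136886201-136886450 (minus strand) for C1qb, chr4:136892915-136893164 (minus strand) for C1qc, chr8:13025784-13026033 (plus strand) for F7 and chr10:79890603-79890852 (plus strand) for Cfd.
C1qb: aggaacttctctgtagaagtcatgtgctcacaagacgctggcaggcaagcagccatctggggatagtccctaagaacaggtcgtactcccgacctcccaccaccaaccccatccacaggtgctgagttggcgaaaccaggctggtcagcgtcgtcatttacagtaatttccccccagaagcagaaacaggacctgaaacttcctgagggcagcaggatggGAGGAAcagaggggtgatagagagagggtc
C1qc: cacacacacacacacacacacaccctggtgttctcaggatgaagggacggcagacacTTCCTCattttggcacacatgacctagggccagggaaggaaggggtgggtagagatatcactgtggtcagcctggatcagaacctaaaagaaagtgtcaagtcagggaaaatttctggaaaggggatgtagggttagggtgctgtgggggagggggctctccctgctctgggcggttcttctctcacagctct
F7: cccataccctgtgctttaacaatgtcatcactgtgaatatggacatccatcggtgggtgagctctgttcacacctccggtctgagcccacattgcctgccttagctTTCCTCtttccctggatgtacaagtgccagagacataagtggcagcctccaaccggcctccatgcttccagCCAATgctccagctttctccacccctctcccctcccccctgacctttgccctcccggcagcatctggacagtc
Cfd: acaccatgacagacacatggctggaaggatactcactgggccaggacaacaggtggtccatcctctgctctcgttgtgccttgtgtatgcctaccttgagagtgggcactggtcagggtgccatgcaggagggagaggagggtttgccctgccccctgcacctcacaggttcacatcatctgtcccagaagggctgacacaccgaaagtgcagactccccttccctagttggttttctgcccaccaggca
Capitals mark matches to any of 4 motifs searched on both strands: GTAAACA, a forkhead site, TATAAA, the TATA box, GAGGAA, a core bound by the myeloid factor PU.1, and CCAAT, the CCAAT box. No matches overlapped. C1qb had GAGGAA beginning 30 bases before the start, C1qc had its reverse complement 193 bases before, and F7 had the reverse complement 144 bases and CCAAT 73 bases before, while the Cfd window held none of the 4 motifs. GAGGAA was present in 23.4% of 32536 such windows of all genes and CCAAT in 33.8%. Promoters were in the table for 24 of the 32 members, as 28 windows, of which 7 held GAGGAA, 5 CCAAT, 4 TATAAA (12.3% of all windows) and 0 GTAAACA (3.17% of all windows).

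The comparison of FoxO1 +/- with WT wounds asks whether loss of 1 Foxo1 copy alters transcripts of these cascades in the wound. No member passed an adjusted p of 0.05 over all genes in limma, and 1 gene of the 16408 (0.00609%) did. The smallest adjusted p of a member was 0.613, for F7, which encodes coagulation factor VII and whose value was 1.46-fold higher in FoxO1 +/- wounds. At an unadjusted limma p under 0.05 there were 4 members of 31 (12.9%, or 3 of 30, 10%, without Masp1), against 6.25% of all genes. Of these, F7, Tfpi and Serpinc1 had higher values (9.68% of members, against 3.43% of all genes). Masp1 had a lower one (2.83% of all genes), but it passed the filter on dim probes through the WT arrays alone, so that its direction follows from the filter and is not read as a result. The count depended on the processing. It was 1 with no filter on dim probes and without FoxO1 +/- replicate 1 or 3, where 5.44%, 6.57% and 6.11% of all genes passed. The 3 FoxO1 +/- arrays lay wholly above the 3 WT arrays for 6 members (19.4%), namely C1qb, Cfd, Cfp, F7, Tfpi and Serpinc1, against 6.91% of all genes above. In either direction 11.5% of all genes did not overlap, 4.56% of all genes lay below, and 0 members did.

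Values were higher in FoxO1 +/- wounds for 23 of 31 members and lower for 8, where 53.7% of all genes had higher values. The median log2 difference of the members was 0.09 and that of all genes 0.01. With quantile normalization the split was 18 higher and 13 lower with a median of 0.03. All genes then had higher values in 45.5% of cases and a median of -0.01. With slide row as a block the split was also 18 and 13, with a median of 0.12, where 49.1% of all genes had higher values. Apart from Masp1, differences ran from -0.40 for Clu to 0.87 for Cfd.

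**Figure D1:**
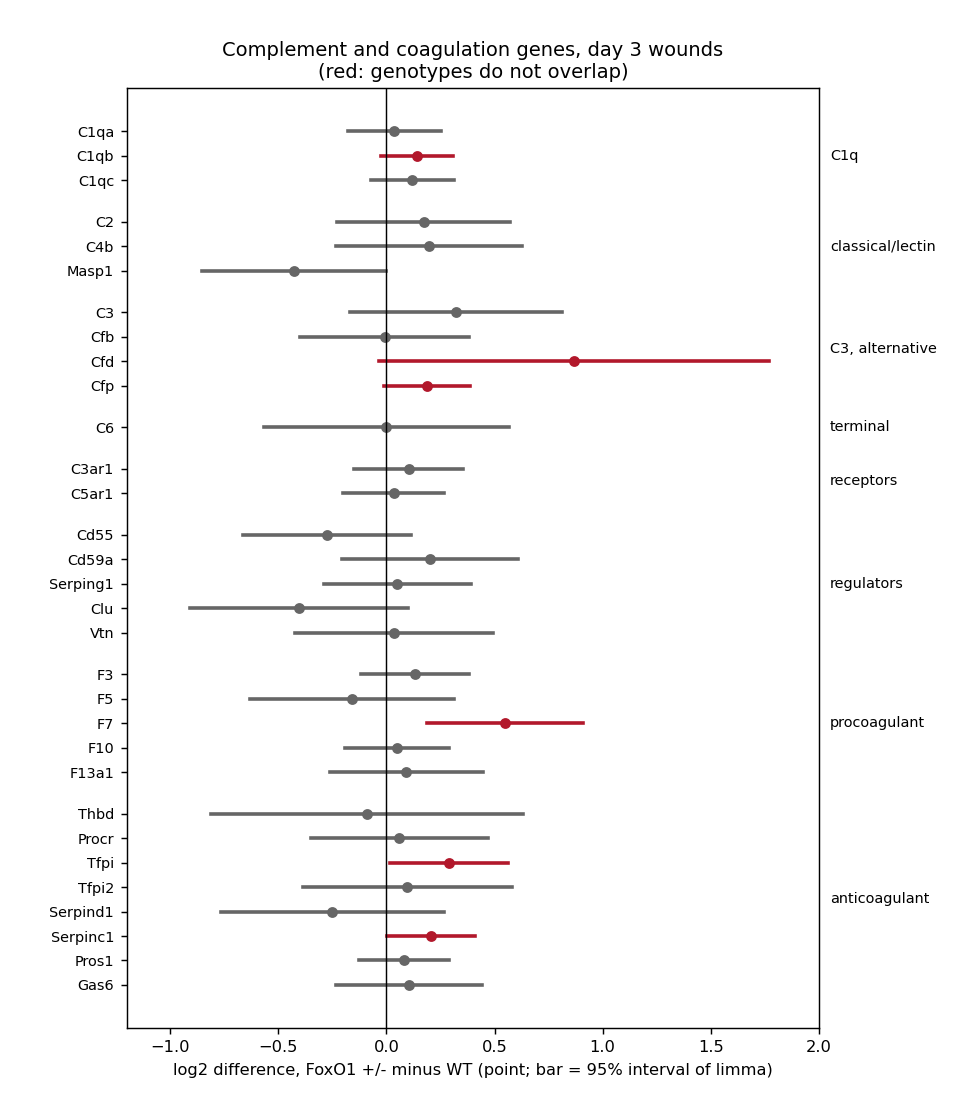
Log2 difference of FoxO1 +/- minus WT (x axis) for the 31 measured genes, grouped by role, with points for the limma estimate and bars for its 95% interval, unadjusted. The 6 genes whose genotypes do not overlap, drawn in red, all have higher values in FoxO1 +/- wounds. The intervals of F7, Tfpi and Serpinc1 lie above 0. That of Masp1 lies below 0, but Masp1 is near background and its direction follows from the filter.

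C1q, the sensor of the classical pathway, is built from 3 kinds of chain, which macrophages produce. Its genes are neighbours on chromosome 4, with C1qc between C1qa and C1qb. C1qb was at 5.31, 5.27 and 5.19 on the FoxO1 +/- arrays, against 5.14, 5.13 and 5.09 on the WT arrays, so the groups did not overlap, although their nearest arrays were 0.06 apart. The log2 difference was 0.14 (SE 0.07, limma adjusted p 0.829), and the exact two-sided permutation p was 0.1, the smallest that 3 against 3 arrays allow. C1qc was at 5.70, 5.68 and 5.57 in FoxO1 +/- wounds and 5.60, 5.45 and 5.54 in WT wounds, where the highest WT array exceeded the lowest FoxO1 +/- array. C1qa was at 5.48, 5.39 and 5.21 in FoxO1 +/- wounds and 5.34, 5.31 and 5.31 in WT wounds. Its WT arrays lay within 0.03 of each other, inside the range of the FoxO1 +/- arrays. The log2 differences were 0.12 (SE 0.08) for C1qc and 0.04 (SE 0.09) for C1qa, with limma adjusted p-values of 0.896 and 0.993. All 3 chains were lowest on replicate 3 among the FoxO1 +/- arrays. With quantile normalization C1qa differed by -0.04.

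Monocyte and macrophage markers also had higher values. Of 10 listed, 9 were measured, Cd68 having no matched probe, and all 9 had higher values in FoxO1 +/- wounds. Their mean level was 4.33, 4.41 and 4.29 on the FoxO1 +/- arrays, against 4.12, 4.21 and 4.13 on the WT arrays. Their summed signal, in multiples of the 75th percentile, ran from 375.7 to 392.0 in FoxO1 +/- wounds and from 318.7 to 396.5 in WT wounds. Among the WT arrays their mean and summed signal were lowest on replicate 1, where all 3 C1q chains had their highest WT value. Their part in the C1q values was not tested. In lists not set beside a member, values were higher for 9 of 10 fibroblast and 6 of 8 measured mast cell markers. They were higher for 3 of 10 basal keratinocyte and 0 of 8 measured hair follicle markers.

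Next in the classical and lectin pathways come C2 and C4, the substrates that form the first C3-cleaving enzyme, and MASP-1, a protease of the lectin pathway. C2 was at 4.04, 4.05 and 3.67 in FoxO1 +/- wounds and 3.73, 3.51 and 4.00 in WT wounds, and C4b at 5.67, 5.72 and 5.75 in FoxO1 +/- wounds and 5.56, 5.15 and 5.85 in WT wounds. Both groups overlapped for each, with differences of 0.17 (SE 0.16) and 0.20 (SE 0.18) and limma adjusted p-values of 0.942 and 0.935. WT replicate 3 held the highest WT value of both and WT replicate 2 the lowest, and without WT replicate 2 C4b differed by 0.01. The near-identical gene C4a matched no probe, so a share of C4a in the C4b signal cannot be told apart. Masp1 was near background, with its probe well above it on 0 of 3 FoxO1 +/- arrays and on 3 of 3 WT arrays. Its measured levels were -6.14, -5.69 and -6.27 in FoxO1 +/- wounds, against -5.72, -5.41 and -5.68 in WT wounds, with a limma adjusted p of 0.798. Averaged over the FoxO1 +/- arrays, with a measured level used where it exceeded the floor, the detection floor was -5.54. That lay above the WT mean of -5.60, so no fold difference is given. Singly the floors of FoxO1 +/- replicates 1, 2 and 3 were -5.88, -5.76 and -5.04, and only the last exceeded the WT mean.

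C3 is the protein on which all complement routes converge, and factor B, factor D and properdin build and steady the alternative pathway's C3-cleaving enzyme. Cfd, which encodes factor D and is also known as adipsin from its abundance in fat, had the largest difference of the members. It was at 7.38, 7.30 and 7.74 in FoxO1 +/- wounds, against 7.08, 5.75 and 6.99 in WT wounds, so that the groups did not overlap and WT replicate 2 lay far below the other 5 arrays. The log2 difference was 0.87 (SE 0.37), a 1.82-fold higher value, with a 95% interval of -0.04 to 1.77 and a limma adjusted p of 0.820. It was 0.44 without WT replicate 2.

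Adipocyte markers followed the same arrays as Cfd. All 10 listed markers were measured and had higher values in FoxO1 +/- wounds, and their mean level was 3.29, 3.55 and 3.70 there against 3.18, 2.25 and 2.78 in WT wounds, lowest on WT replicate 2. Their summed signal ran from 273.9 to 353.4 in FoxO1 +/- wounds and from 144.6 to 263.6 in WT wounds. All 10, among them Adipoq and Plin1, were well above background on all 6 arrays. Their part in the Cfd difference was not tested.

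Cfp, which encodes properdin, a stabiliser of the alternative pathway enzyme made by neutrophils and macrophages, was even in one genotype. It was at 6.21, 6.21 and 6.20 in FoxO1 +/- wounds and 5.97, 6.15 and 5.93 in WT wounds, which did not overlap. The log2 difference was 0.19 (SE 0.08, limma adjusted p 0.820), and 0.07 with quantile normalization. C3 was at 7.05, 7.03 and 6.90 in FoxO1 +/- wounds and 6.41, 6.48 and 7.14 in WT wounds, where WT replicate 3 exceeded every FoxO1 +/- array. Its difference was 0.32 (SE 0.20, limma adjusted p 0.887), a dimmer C3 probe gave 0.31 (SE 0.20), and without WT replicate 3 the difference was 0.55. Cfb, which encodes factor B, was at 5.71, 5.52 and 5.20 in FoxO1 +/- wounds and 5.30, 5.67 and 5.49 in WT wounds, a difference of -0.01 (SE 0.16) that turned positive in 4 of 16 alternatives. Within this pathway the genotypes did not overlap for Cfd and Cfp and did for C3 and Cfb, and none passed the adjusted test.

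The terminal pathway was represented by C6, a component of the membrane pore, since C7 had no probe. C6 was at -1.09, -0.91 and -0.51 in FoxO1 +/- wounds and -0.78, -1.24 and -0.49 in WT wounds, with a difference of 0.00 (SE 0.23, limma adjusted p 0.999) and a 95% interval of -0.57 to 0.57. The receptors for the inflammatory peptides C3a and C5a, found on neutrophils and macrophages, overlapped too. C3ar1 was at 2.09, 1.98 and 1.86 in FoxO1 +/- wounds and 1.77, 2.03 and 1.83 in WT wounds, a difference of 0.10 (SE 0.10). C5ar1 was at 1.63, 1.76 and 1.66 in FoxO1 +/- wounds and 1.54, 1.81 and 1.60 in WT wounds, a difference of 0.03 (SE 0.10). Both receptors were lowest on WT replicate 1, and their limma adjusted p-values were 0.949 and 0.995.

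Among the regulators that protect host cells, Clu and Cd55 had lower values and the others higher ones, none past the test. Clu encodes clusterin, a chaperone-like inhibitor of the pore, and was at 4.25, 4.29 and 4.07 in FoxO1 +/- wounds, against 4.53, 4.24 and 5.04 in WT wounds. WT replicate 3 was the highest, and WT replicate 2 lay within the FoxO1 +/- range. The difference was -0.40 (SE 0.21, limma adjusted p 0.845), and -0.18 without WT replicate 3. Cd55 encodes decay-accelerating factor, which dismantles the C3-cleaving enzymes on cell surfaces. It was at 1.79, 1.83 and 1.70 in FoxO1 +/- wounds and 1.82, 2.40 and 1.93 in WT wounds, with the 2 genotypes overlapping by 1 array. Its difference of -0.27 (SE 0.16, limma adjusted p 0.870) was -0.10 without WT replicate 2. The related gene Cd55b was measured by a probe of its own and differed by -0.17 (SE 0.12).

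Cd59a, a membrane inhibitor of the pore, was at 0.29, 0.33 and 0.17 in FoxO1 +/- wounds and 0.01, -0.23 and 0.41 in WT wounds. Serping1, the inhibitor of the C1 proteases, was at 6.21, 6.25 and 5.96 in FoxO1 +/- wounds and 5.95, 5.98 and 6.34 in WT wounds. Vtn, which encodes vitronectin, a plasma and matrix protein that binds the assembling pore, was at -0.17, 0.17 and 0.11 in FoxO1 +/- wounds and -0.21, -0.17 and 0.39 in WT wounds. All 3 had their highest value of the 6 arrays on WT replicate 3, and their differences were 0.20 (SE 0.17), 0.05 (SE 0.14) and 0.03 (SE 0.19), with limma adjusted p-values from 0.922 to 0.998.

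**Figure D2:**
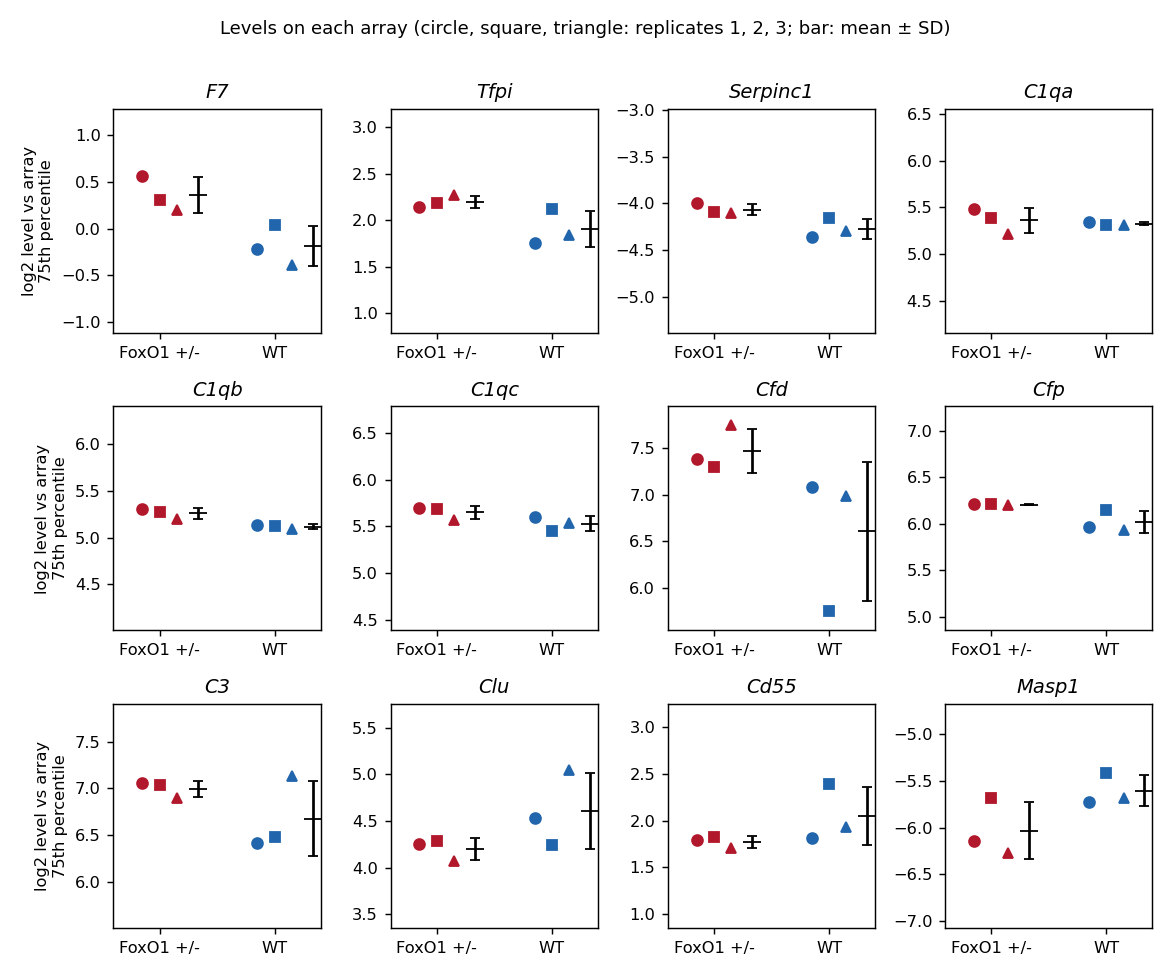
Log2 level relative to the array's 75th percentile (y axis, spanning the same width in every panel) on each FoxO1 +/- and WT array for 12 genes, with the mean and SD of each genotype (n = 3). F7 is higher on every FoxO1 +/- array, Cfd is low on WT replicate 2 alone, and C3 and Clu have their highest value on WT replicate 3.

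On the procoagulant side, F7 had the largest difference. It was at 0.57, 0.31 and 0.20 in FoxO1 +/- wounds, against -0.22, 0.04 and -0.39 in WT wounds, and the groups did not overlap. The log2 difference was 0.55 (SE 0.15) with a 95% interval of 0.19 to 0.91, an unadjusted limma p of 0.00973 and an adjusted p of 0.613. A second F7 probe was at 0.37, 0.15 and 0.02 in FoxO1 +/- wounds and -0.36, -0.03 and -0.53 in WT wounds, again without overlap, and differed by 0.49 (SE 0.16). When single arrays were left out the difference on the brighter probe ran from 0.44 to 0.66, with unadjusted limma p-values from 0.00449 to 0.0314. Under the other alternatives it ran from 0.52 to 0.76.

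F10, the factor activated by factor VII and the neighbour of F7 on chromosome 8, had overlapping genotypes. Its brighter probe was at 8.78, 8.66 and 8.96 in FoxO1 +/- wounds and 8.70, 8.82 and 8.73 in WT wounds, a difference of 0.05 (SE 0.10, limma adjusted p 0.992). Its dimmer probe was at 3.85, 3.52 and 4.00 in FoxO1 +/- wounds and 3.20, 4.11 and 3.43 in WT wounds, a difference of 0.21 (SE 0.26). The dimmer probe spread more widely in WT wounds, with an SD of 0.47 (n = 3) against 0.06 (n = 3) on the brighter one. The difference between the F7 and the F10 differences was not tested.

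F3, which encodes tissue factor, the trigger of clotting, was at 4.27, 3.99 and 4.23 in FoxO1 +/- wounds and 3.96, 4.13 and 4.00 in WT wounds. Both F3 probes differed by 0.13 (SE 0.10 and 0.12), with genotypes that overlapped. F13a1, the subunit of the fibrin-crosslinking enzyme that macrophages and platelets hold, was at 6.04, 6.35 and 6.43 in FoxO1 +/- wounds and 5.98, 6.36 and 6.20 in WT wounds, a difference of 0.09 (SE 0.15). F5, the cofactor of factor X, was at 0.66, 0.62 and 0.26 in FoxO1 +/- wounds and 0.66, 1.01 and 0.36 in WT wounds. It was the one procoagulant member with a lower value, -0.16 (SE 0.19), and a second probe gave -0.22 (SE 0.22). The limma adjusted p-values of F3, F13a1 and F5 were 0.916, 0.986 and 0.966.

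Of the 8 anticoagulant members, 6 had higher and 2 lower values. Tfpi encodes tissue factor pathway inhibitor, which endothelium produces and which blocks the complex of tissue factor, factor VII and factor X. It was at 2.14, 2.19 and 2.27 in FoxO1 +/- wounds, against 1.76, 2.12 and 1.84 in WT wounds, with WT replicate 2 just below the lowest FoxO1 +/- array. The log2 difference was 0.29 (SE 0.11, unadjusted limma p 0.041, adjusted p 0.798). Leaving out any array but WT replicate 2 gave an unadjusted limma p of 0.064 to 0.122. Its other probes differed by 0.16 (SE 0.13) and 0.22 (SE 0.09), with genotypes that did not overlap on the probe of 0.22. On the probe of 0.16 they did, at 0.52, 0.69 and 0.66 in FoxO1 +/- wounds and 0.30, 0.70 and 0.39 in WT wounds.

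Endothelial markers had higher values as well: all 10 listed markers were measured and higher, with a mean level of 1.62, 1.75 and 1.77 in FoxO1 +/- wounds against 1.49, 1.42 and 1.57 in WT wounds. Their summed signal ran from 64.2 to 72.7 in FoxO1 +/- wounds and from 56.3 to 59.1 in WT wounds. Their part in the Tfpi difference was not tested. The endothelial receptors Thbd (thrombomodulin, which turns thrombin to protein C) and Procr (the protein C receptor) had overlapping genotypes. Thbd was at 3.35, 3.67 and 4.04 in FoxO1 +/- wounds and 3.27, 4.30 and 3.75 in WT wounds, a difference of -0.09 (SE 0.30). Its highest value was on WT replicate 2, where the endothelial markers had their lowest mean level. Procr was at 2.99, 2.96 and 3.37 in FoxO1 +/- wounds and 2.77, 3.19 and 3.19 in WT wounds, a difference of 0.06 (SE 0.17). Thbd had the widest range of any coagulation member, 1.03 among the WT arrays, and both receptors had a limma adjusted p of 0.995.

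Serpinc1 encodes antithrombin, a plasma inhibitor of thrombin and factor X that the liver makes. Its probe was well above background on all 6 arrays, at -4.00, -4.10 and -4.10 in FoxO1 +/- wounds and -4.36, -4.16 and -4.30 in WT wounds. The groups did not overlap, with 0.05 between their nearest arrays, and the difference was 0.21 (SE 0.08, unadjusted limma p 0.048, adjusted p 0.798). Leaving out any array but WT replicate 2 gave an unadjusted limma p of 0.071 to 0.142. Of 10 hepatocyte markers, Apoa1 and Apoh were not well above background on all arrays of either genotype, and the mean level of the 8 measured was -1.87, -1.69 and -1.70 in FoxO1 +/- wounds and -1.74, -2.17 and -1.59 in WT wounds. Their summed signal ran from 27.8 to 35.0 in FoxO1 +/- wounds and from 10.2 to 29.6 in WT wounds. That sum rests mainly on Cyp2e1 and Apoa2, the only ones above a level of 0 on any array. Cyp2e1 was at 4.52, 4.45 and 4.86 in FoxO1 +/- wounds and 3.44, 2.09 and 4.57 in WT wounds. Of the 8, 6 had higher values and 2, Ttr and Ahsg, lower ones. The part of these markers in the Serpinc1 values was not tested. Serpind1, heparin cofactor II, another thrombin inhibitor, went the other way at -3.77, -4.18 and -3.79 in FoxO1 +/- wounds and -4.08, -3.39 and -3.52 in WT wounds, a difference of -0.25 (SE 0.21, limma adjusted p 0.929).

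The remaining anticoagulant members differed by 0.08 to 0.10. Tfpi2, a matrix-bound relative of Tfpi, was at -1.47, -1.17 and -1.10 in FoxO1 +/- wounds and -1.51, -0.94 and -1.59 in WT wounds, a difference of 0.10 (SE 0.20). Pros1, which encodes protein S, the cofactor of protein C, was at 2.81, 3.06 and 2.91 in FoxO1 +/- wounds and 2.83, 2.87 and 2.84 in WT wounds, a difference of 0.08 (SE 0.09). Gas6, a relative of protein S that binds the receptors Tyro3, Axl and Mertk and aids the clearance of dead cells, was at 5.88, 6.18 and 5.87 in FoxO1 +/- wounds and 5.82, 5.71 and 6.09 in WT wounds, a difference of 0.10 (SE 0.14). Their limma adjusted p-values were 0.992, 0.952 and 0.976.

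Where a member had several probes, all gave the same direction. This held for the 8 members C3, F10, F13a1, F3, F5, F7, Serping1 and Tfpi, although the F10 differences were 0.05 and 0.21 and the Tfpi differences ran from 0.16 to 0.29.

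The WT range exceeded the size of the log2 difference for 26 of 31 members (83.9%), near the 85.2% of all genes, and among them was Cfd, with a WT range of 1.33. The WT SD exceeded the FoxO1 +/- SD for 23 of 31 members (74.2%), against 54.7% of all genes. The median SD of the members was 0.15 in FoxO1 +/- wounds and 0.22 in WT wounds, where all genes had medians of 0.12 and 0.13.

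The arrays that held the highest and lowest WT values are given as counts, with no test between the coagulation and the complement members. Among the WT arrays, 12 of 13 coagulation members had their highest value on WT replicate 2 and 9 had their lowest on WT replicate 1, whereas 41.0% and 27.7% of all genes did so. The exception to the first was Gas6, with its highest WT value on WT replicate 3. The 23 other measured coagulation genes, described below, were more divided. F8, F9, Vwf, Serpina10 and Mertk had their highest WT value on WT replicate 3. Proc, Serpine2, F2r and Tyro3 had it on WT replicate 1, and the rest on WT replicate 2. Complement members were divided, with the highest WT value on WT replicate 3 for 8 of 18 (22.9% of all genes). It was on WT replicate 2 for 6 (41.0% of all genes) and on WT replicate 1 for 4 (36.1% of all genes). Their lowest WT value was on WT replicate 1 for 8 (44.4%, against 27.7% of all genes). It was on WT replicate 2 for 8 (44.4%, against 33.8% of all genes). Over all 6 arrays, WT replicate 1 held the highest value of 0 of 31 members, against 17.1% of all genes. It held the lowest of 11 members (35.5%), against 15.9% of all genes. Without WT replicate 1, 19 members had higher and 12 lower values with a median of 0.05, where 54.8% of all genes had higher values. There 3 members had an unadjusted limma p under 0.05, as did 5.53% of all genes, and F7 differed by 0.53. Neutrophil markers, all 10 measured, had a mean level of 2.26, 2.29 and 2.46 in FoxO1 +/- wounds and 1.64, 2.57 and 2.06 in WT wounds, lowest on WT replicate 1 and highest on WT replicate 2. Their summed signal ran from 592.9 to 782.2 in FoxO1 +/- wounds and from 547.5 to 774.7 in WT wounds. Platelet and megakaryocyte markers, 9 of 10 measured without Gp6, had the same extremes, with a mean level of 0.42, 0.51 and 0.74 in FoxO1 +/- wounds and 0.20, 0.88 and 0.40 in WT wounds. Their summed signal ran from 208.1 to 273.7 in FoxO1 +/- wounds and from 161.6 to 268.4 in WT wounds. The part of either cell type in the coagulation values was not tested.

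**Figure D3:**
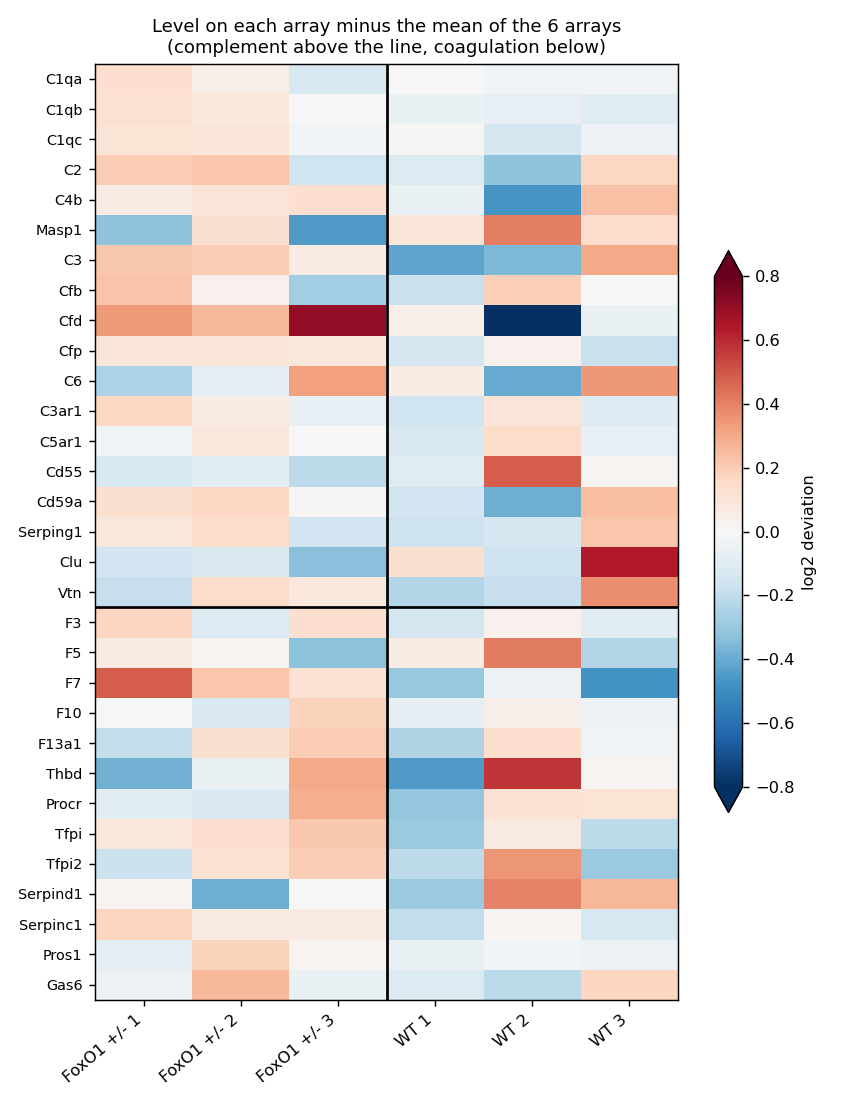
Log2 level of each of the 31 genes on each array minus its mean over the 6 arrays (colour), with FoxO1 +/- arrays on the left, WT arrays on the right, and complement above coagulation genes. Most coagulation genes are above their mean on WT replicate 2 and below it on WT replicate 1, and C3, C4b, Cd59a, Clu and Vtn are above theirs on WT replicate 3.

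**Figure D4:**
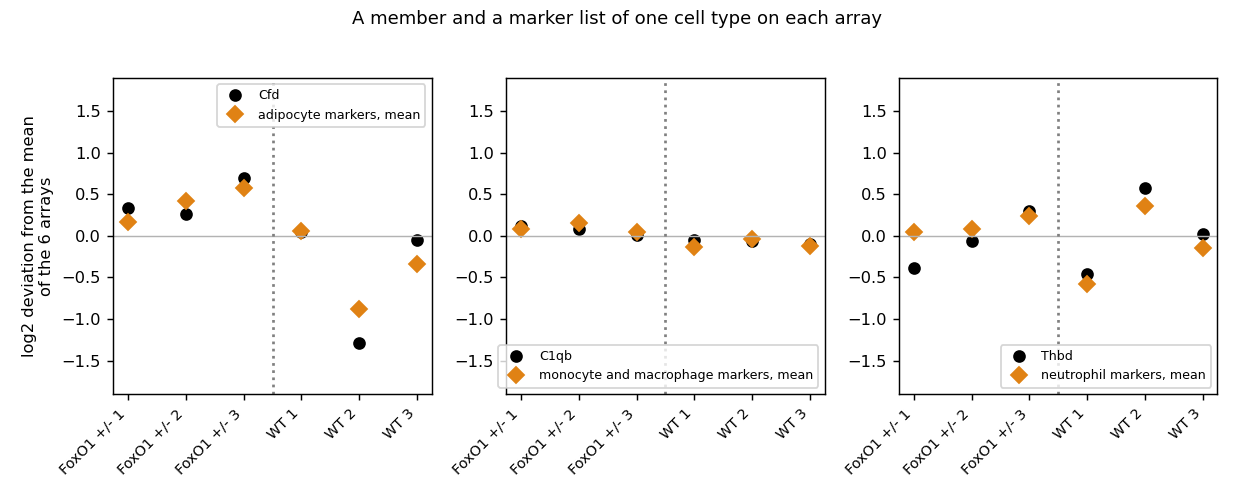
Level of 1 gene (black) and mean level of 1 cell type's marker list (orange) on each array, both as log2 deviation from their own mean over the 6 arrays. Cfd and the adipocyte markers are lowest on WT replicate 2, C1qb and the macrophage markers are higher on the FoxO1 +/- arrays, and Thbd and the neutrophil markers are lowest on WT replicate 1 and highest on WT replicate 2. The endothelial markers, not drawn, have their lowest mean level on WT replicate 2.

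Other genes of the cascades were taken from 2 textbook lists of 35 complement and 34 coagulation genes. Of these 69, 48 were measured, 20 were not well above background on all arrays of either genotype and 1, C4a, had no matched probe. The genes at background were largely plasma proteins, among them prothrombin (F2), factor XII (F12), 2 fibrinogen chains (Fgb and Fgg), the pore components C8a, C8b and C9, and the mannose-binding lectins Mbl1 and Mbl2. None of the 48 passed an adjusted p of 0.05 in limma, and 3 (6.25%) had an unadjusted p under 0.05, a share equal to the 6.25% of all genes. All 3 had lower values in FoxO1 +/- wounds, and they are described by their values alone. The 25 measured complement genes held 0 of these, with 16 values higher and 9 lower and a median difference of 0.09. The 23 measured coagulation genes held all 3, with 10 values higher and 13 lower and a median of -0.02.

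Of these 3, 2 are receptors through which clotting proteases signal to cells. F2rl1, the protease-activated receptor cleaved by trypsin-like enzymes and by factors VII and X, was at -3.49, -3.63 and -3.41 in FoxO1 +/- wounds, against -3.03, -3.02 and -3.10 in WT wounds. The difference was -0.46 (SE 0.08, unadjusted limma p 0.00126, adjusted p 0.369), and it was -0.19 after normexp correction. F2r, the thrombin receptor, was at 1.46, 1.42 and 1.46 in FoxO1 +/- wounds and 2.14, 1.68 and 1.85 in WT wounds, a difference of -0.44 (SE 0.12, adjusted p 0.636). Kng1, which encodes kininogen, the source of bradykinin, was at -0.84, -0.49 and -0.21 in FoxO1 +/- wounds and -0.10, 0.18 and 0.11 in WT wounds, a difference of -0.57 (SE 0.17, adjusted p 0.651). The 3 FoxO1 +/- arrays lay wholly below the WT arrays for each of these genes. Of all 48, the genotypes did not overlap for 4 (8.33%, against 11.5% of all genes), and all 4 lay below, as 4.56% of all genes did.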

How the data were processed

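RNA of 3 FoxO1 +/- and 3 WT wound samples, 200 ng each, was labelled with Cy3 and hybridised to 6 Agilent arrays of 1 slide, read in 1 scan. The deposited intensity values are the processed signal of Feature Extraction 10.7.1.1, per the file headers, which also record background subtraction and detrending, while the submitters' processing notes name version 9.1. The authors' value table holds the same intensity, rounded, within 0.6% for all 59305 non-control spots. Signals were converted to log2, unflagged spots of a probe averaged, and each array's 75th percentile subtracted. No spot was saturated. Symbols came from RefSeq accessions (GRCm38.p6 table, whereas the array was annotated on mm9), matching 25858 of 26952 probes with an mRNA accession. Probes well above background on all arrays of at least 1 genotype were kept, and the brightest probe stood for each gene (16408 genes). FoxO1 +/- minus WT was fitted with limma 3.58.1 in R 4.3.3, two-sided, with Benjamini-Hochberg adjustment over all genes, and errors are SE unless called SD. The fit was tested on simulated data.

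The members and lists were chosen with earlier results of these data known, so no test over the list is given. By the naming rule every member is accounted for, and other pathway genes are named at an unadjusted p under 0.05. Further pathway genes and markers were named after their values were seen. Each array was taken as 1 animal from the title numbers, which the series' text does not settle, so p-values reflect only array-to-array spread, which may be technical, and the number of arrays limits the precision. Alternatives were normexp background correction with an offset of 50 (on median signals, because no mean signal column was used here), quantile and median scaling, 2 other probe filters, the mean of a gene's probes, leaving out each array, slide row (from the array positions in the file headers) as a block or within row 1, a replicate block and the authors' value table.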

Additional observations from a re-analysis of the deposited data

How the results depend on the processing

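No member passed an adjusted p of 0.05 in any of the 16 alternatives, and the smallest member adjusted p was 0.230, without WT replicate 2. The genes past 0.05 among all genes numbered 1, against 0 with normexp, 2 with quantile normalization, 5 with median scaling, 3 with no filter on dim probes, 0 with probes well above background on all 6 arrays, 7 with slide row as a block, 4 within slide row 1, and 0 to 28 with an array left out, the 28 without WT replicate 2. Members at an unadjusted p under 0.05 numbered 4, against 1 with no filter, 1 with slide row as a block, 2 within slide row 1, and 1 to 6 with an array left out. They were 1 without FoxO1 +/- replicate 1 or 3 and 2 without FoxO1 +/- replicate 2. Members whose genotypes did not overlap numbered 6, against 15 within slide row 1 and 7 to 11 with an array left out. With fewer arrays overlap is rarer, and 44.9% and 18.1% to 26.7% of all genes did not overlap there. The members' median ran from 0.047 to 0.126 with an array left out. Row 2 held no WT array, so both slide row fits set FoxO1 +/- replicate 1 alone against 3 WT arrays and assume that it varies like the others. With the replicate block 0 genes and 3 members passed these thresholds, where 4.83% of all genes had an unadjusted p under 0.05. Deviations of same-numbered arrays from their group means correlated at -0.068, -0.14 and -0.30. Neither result can settle whether same-numbered animals form pairs, and pairing was not assumed in the main fit.

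Of 495 member values in the alternatives, 44 changed sign, in 15 members, and 16 members kept their direction throughout. The 495 values are not separate checks. The other probe filters and the replicate block left the differences of the members they kept unchanged, and both slide row fits gave the same differences. With quantile normalization the values were -0.043 for C1qa, -0.085 for Serping1, -0.063 for F10, -0.036 for F13a1 and -0.018 for Gas6. With slide row as a block and within row 1 alike they were 0.23 for Cfb, -0.019 for C5ar1, -0.17 for Vtn, -0.14 for F13a1, -0.058 for Procr, -0.12 for Tfpi2 and -0.030 for Pros1. Masp1, at background in FoxO1 +/- wounds, was 0.12 with normexp. Leaving out single arrays gave -0.022 to 0.11 for C1qa, -0.13 to 0.13 for Cfb, -0.20 to 0.17 for C6, -0.023 to 0.12 for C5ar1, -0.017 to 0.18 for Serping1, -0.075 to 0.23 for Vtn, -0.32 to 0.0071 for F5, -0.033 to 0.12 for F10, -0.0053 to 0.21 for F13a1, -0.34 to 0.17 for Thbd, -0.082 to 0.13 for Procr and -0.026 to 0.30 for Tfpi2. The cause was not tested. Dim probes such as Masp1 and Serpinc1 are limited by background.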

Other observations

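The proteases that C1q activates shared an array pattern. C1ra was at 4.42, 4.53 and 4.09 in FoxO1 +/- wounds and 4.15, 4.08 and 4.46 in WT wounds, C1s1 at 4.69, 4.84 and 4.25 in FoxO1 +/- wounds and 4.28, 4.20 and 4.67 in WT wounds, and C1s2 at 5.05, 5.22 and 4.67 in FoxO1 +/- wounds and 4.68, 4.65 and 5.09 in WT wounds. Each was high on FoxO1 +/- replicates 1 and 2 and WT replicate 3 and low on the other 3 arrays, as were C2 and their inhibitor Serping1. C1s1 and C1s2 are closely related genes whose probes may share signal. The differences were 0.12, 0.21 and 0.17 with limma adjusted p-values of 0.975, 0.937 and 0.955.

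The receptors that bind complement-coated targets gave mixed values. Vsig4, a receptor of resident macrophages, was at -0.66, -0.31 and 0.58 in FoxO1 +/- wounds and -0.32, -0.76 and -0.49 in WT wounds, and the integrin subunit genes Itgam and Itgb2 differed by -0.07 (SE 0.17) and 0.17 (SE 0.19). Hc, which encodes C5, spread most among the complement genes, at -1.91, -3.36 and -2.31 in FoxO1 +/- wounds and -3.18, -0.89 and -1.74 in WT wounds. The Gas6 receptors Tyro3, Axl and Mertk differed by -0.16 (SE 0.17), -0.12 (SE 0.13) and -0.01 (SE 0.12), with limma adjusted p-values of 0.953 or more.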
